A study of Schmidtea mediterranea with 96 samples.

Results

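In the planarian *Schmidtea mediterranea*, 90 of 36035 transcripts pointed opposite ways in cells sorted on a DNA dye and in cells sorted on a protein. These discordant transcripts were lower in X1 than in Xins cells, the dye-sorted populations, yet higher in PIWI-1 high than in PIWI-1 negative cells, the protein-sorted populations. They were chosen from measured values, with L defined as the log2 ratio of 2 group means, each with 1 FPKM added (FPKM scales reads to transcript length in kb and to library size in M reads). A discordant transcript had L(X1,Xins) of at most -1, L(PIWI-1 high,negative) of at least 0.7 and L(PIWI-1 low,high) below 1. It also stayed within a log2 difference of 1 from 0 hr at each of the 16 later times of a regeneration course. The first condition held for 6354 transcripts, the first 2 for 203, the first 3 for 110 and all 4 for 90. All differences in those contrasts are therefore descriptions of how the transcripts were chosen, and no test is given for them.

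Planarians rebuild missing tissue from neoblasts, the only dividing somatic cells of the adult body. Flow cytometry with Hoechst separates X1 cells, which carry more than the resting content of DNA and are mostly cycling neoblasts, from X2 cells, a mixture of neoblasts and their postmitotic progeny, and from Xins cells, the radiation-insensitive and mostly differentiated cells. PIWI-1 is an Argonaute-family protein of neoblasts. The protein persists for a time in daughter cells that no longer transcribe its gene, so a sort on PIWI-1 protein grades cells from neoblasts (high) through recent progeny (low) to differentiated cells (negative). X2 cells and PIWI-1 low cells thus both hold progeny in transition, and the gates are not the same gates.

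The groups used here were X1, X2 and Xins cells (3 libraries each), irradiated whole animals taken 24 hours after 10000 rads and untreated whole animals (3 libraries each), PIWI-1 high, low and negative cells (4 libraries each), and small fragments amputated from the side of the animal at 17 times from 0 hr to 14 days (4 libraries each). A further single whole-animal library in the PIWI-1 table is labelled unc_totalRNA, with no further description. All animals were wild type and had been starved for at least 7 days. An asexual strain (CIW4) and a sexual line (S2F8) were kept, and the labels do not say which gave which library. Each whole-animal library of the irradiation experiment came from 5 pooled worms, and the Hoechst-sorted cells went directly into Trizol LS. The protocols also describe RNA extraction from fixed cells without naming the libraries. No source states that replicates came from separate cultures or sorting days, so p-values measure only the spread between these libraries, which may be technical.

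Recovered read totals were 33.8 to 40.1 M for the X cells and whole animals, 24.2 to 44.3 M in the PIWI-1 table and 9.54 to 20.2 M in the regeneration course. A single transcript took 37.5% to 41.5% of the reads in X1, 26.8% to 29.0% in Xins, and 16.6% to 61.2% across the sorted PIWI-1 libraries, the highest share in PIWI-1 negative replicate 4. The PIWI-1 libraries of replicate 2 stood apart in the number of transcripts with at least 1 FPKM. Replicate 2 had 14747 such transcripts in PIWI-1 high cells (at most 11667 in the other replicates), 16804 in PIWI-1 low cells (at most 12971) and 19473 in PIWI-1 negative cells (at most 15719). The files do not pair identifiers with gene names, so no marker gene could be read. In their place, of 341 transcripts called lower in irradiated than in untreated animals, 335 had an L(PIWI-1 high,negative) of at least 1 and 237 an L(X1,Xins) of at least 1, while 0 and 24 had an L of at most -1 in those contrasts.

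Within its own table, the median level of the discordant transcripts was lowest in X1 and in PIWI-1 negative cells. Their median level was 5.04 FPKM in X1, 16.0 in X2 and 26.8 in Xins cells. In the other sort PIWI-1 high cells had a median of 11.3 FPKM, PIWI-1 low cells 14.2 FPKM and PIWI-1 negative cells 3.74 FPKM. Whole animals had medians of 21.5 FPKM when irradiated and 24.5 FPKM when untreated, in the table of the X cells, and unc_totalRNA had 25.0 FPKM in the PIWI-1 table. In X1, Xins and PIWI-1 high cells these levels are above those of the transcriptome at large, and in PIWI-1 negative cells they are below. The 19619 transcripts averaging 1 FPKM or more in untreated animals had medians of 1.17 FPKM in X1, 4.03 in Xins, 1.97 in PIWI-1 high and 4.59 in PIWI-1 negative cells. The rule favoured transcripts detected in Xins and PIWI-1 high cells and low in PIWI-1 negative cells. The 19619 were filtered on untreated animals alone, so nothing is read from this contrast. In bulk libraries such as these, fewer cells of a type and less RNA per cell cannot be told apart.

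**Figure D1:**
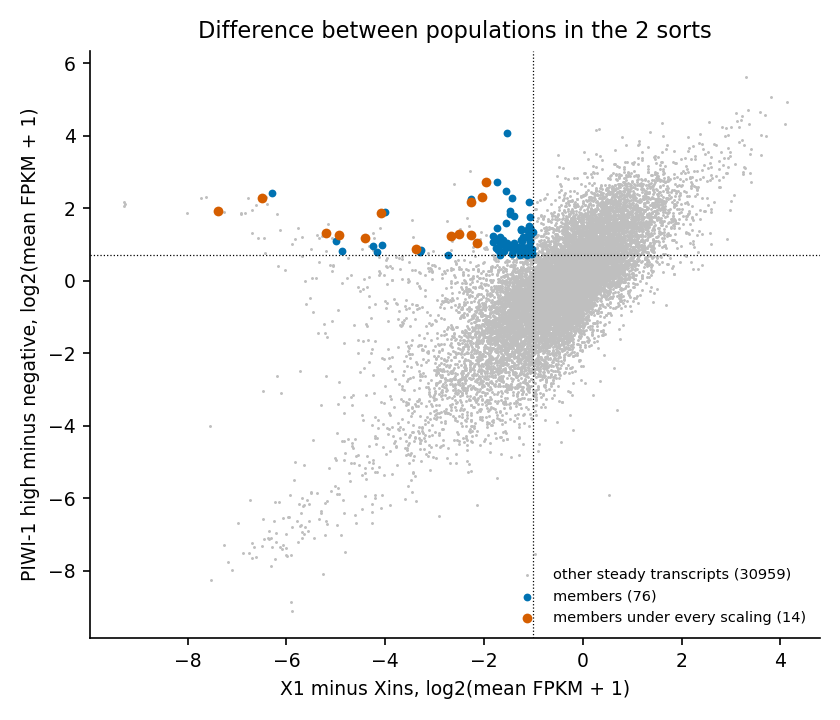
Each point is a transcript that stayed within a log2 difference of 1 over the regeneration course, with X1 minus Xins on the x axis and PIWI-1 high minus negative on the y axis, both as differences of log2(mean FPKM + 1). Dotted lines mark the limits of -1 and 0.7, the 90 discordant transcripts lie in the upper left corner, and the 14 in orange met all conditions under both other scalings as well. Any grey points in that corner had an L(PIWI-1 low,high) of 1 or more.

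The plot of the 2 sorts shows the corner that held the discordant transcripts. They also had to have an L(PIWI-1 low,high) below 1, a condition not set for the groups counted next. Without that condition and the regeneration limit, 203 transcripts met the X1 to Xins and PIWI-1 high to negative limits. Even so, 203 is below the counts of transcripts on which the sorts pointed the same way. Among transcripts that stayed within the same limit over regeneration, 2965 were lower in X1 than Xins and also lower in PIWI-1 high than negative, by at least 1 and 0.7 log2 units. Another 883 were higher in both sorts by those amounts. The opposite disagreement, higher in X1 than Xins but lower in PIWI-1 high than negative, was met by 0 transcripts. Across the discordant transcripts the median L(X1,Xins) was -1.54, from -7.39 to -1.02, and the median L(PIWI-1 high,negative) was 1.09, from 0.70 to 4.09. L(PIWI-1 low,high) had a median of 0.49 and ran from -1.49 to 0.99.

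Both limits cut through a continuous spread of values. In the X1 to Xins contrast, 17 of the chosen transcripts lay within 0.1 of the limit, and 19 transcripts that met all other conditions lay within 0.1 outside it. The nearest inside were SMED30018508 at -1.017 and SMED30019711 at -1.022, and the nearest outside were SMED30015750 at -0.998 and SMED30032186 at -0.991. For the PIWI-1 contrast 12 lay within 0.1 inside the limit and 16 within 0.1 outside. There SMED30031138 at 0.702 and SMED30022665 at 0.710 were the nearest inside, with SMED30035705 at 0.693 and SMED30035148 at 0.677 the nearest outside.

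Both contrasts of the chosen transcripts were also read library by library. For 90 of 90 the 3 X1 values all lay below the 3 Xins values. That pattern was frequent in the whole table, where 58.6% of 14983 transcripts showed it, and 40.7% met the X1 to Xins limit. In the PIWI-1 sort the 4 high values all lay above the 4 negative values for 30 of 90, beside 20.1% of 14543 transcripts, and 28.4% met the PIWI-1 limit. Since the rule used both contrasts, these shares carry no weight as support. The limits and the number of libraries per group differed between the sorts, so the sorts are not ranked by these counts.

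Taken within a replicate number, X1 was below Xins for 90 of 90 transcripts in each of the 3 numbers, with medians of -1.31, -1.60 and -1.61 log2 units. PIWI-1 high exceeded PIWI-1 negative for 90, 90, 89 and 88 of 90 in replicates 1 to 4, with medians of 1.03, 1.05, 1.41 and 1.01. Levels differed widely between replicate numbers of the PIWI-1 sort. Their median level was 9.19, 19.2, 5.19 and 6.42 FPKM in PIWI-1 high replicates 1 to 4, against 2.56, 7.63, 0.990 and 2.15 FPKM in PIWI-1 negative replicates 1 to 4. Replicate 2 was the highest and replicate 3 the lowest in both populations. Chosen without the PIWI-1 libraries of replicate 2, the rule gave 86 transcripts, of which 72 were among the 90.

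A read of libraries that took no part in the choice was possible by choosing without one number and looking at that number. Without X1 and Xins replicate 1 the rule chose 120 transcripts, and 118 of them were lower in X1 in the pair left out, 62 by at least 1 log2 unit. Of 15988 transcripts at 1 FPKM or more in X1 or Xins, 68.4%, 70.9% and 72.5% were lower in X1 in replicates 1 to 3, and 38.8%, 38.3% and 42.2% were past the limit. Left-out replicate 2 gave 87 of 87 in the same direction (81 past the limit), and replicate 3 gave 81 of 81 (78 past the limit). For the PIWI-1 sort, with high, low and negative libraries of a number left out together, the direction was kept by 124 of 125, 81 of 86, 89 of 92 and 83 of 85 for numbers 1 to 4. The limit of 0.7 was met in the left-out number by 86, 62, 76 and 68 of them. Among 17709 transcripts at 1 FPKM or more in PIWI-1 high or negative cells, high exceeded negative for 38.6%, 37.5%, 51.0% and 44.6% in numbers 1 to 4, and 23.6%, 23.5%, 32.5% and 25.5% were past the limit. The left-out libraries share their experiment with those that chose, so this reads the repeatability of each sort and not of the disagreement in a further experiment.

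**Figure D2:**
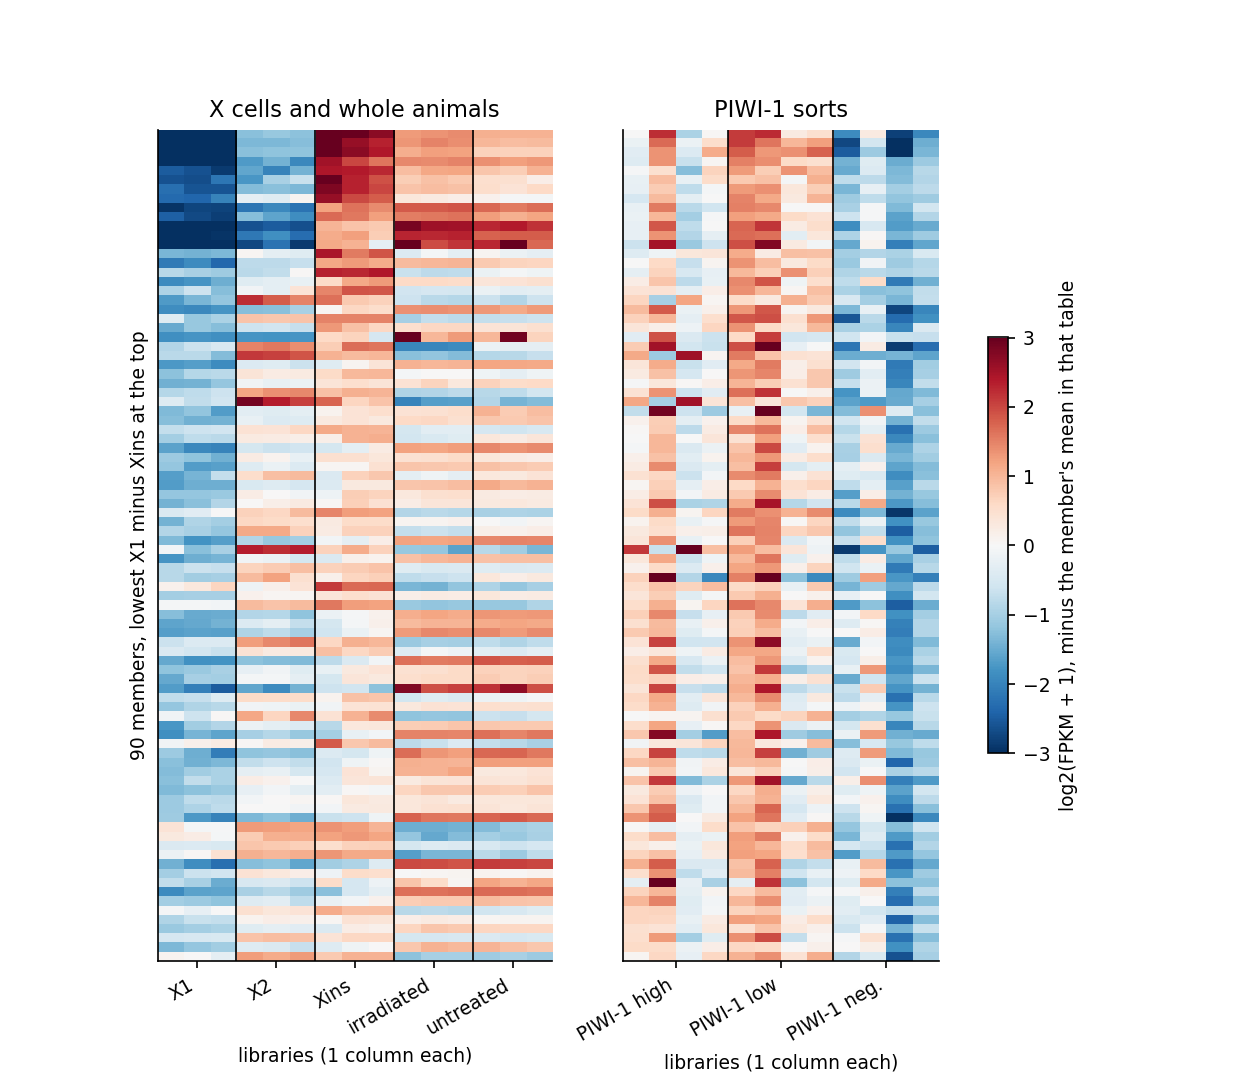
Each row is a discordant transcript, ordered from the most negative X1 minus Xins at the top, and each column a library. Colour gives log2(FPKM + 1) minus the mean of that transcript in the same table, so blue X1 and PIWI-1 negative columns stand beside red Xins and PIWI-1 low columns, and PIWI-1 replicate 2 is the reddest column in each PIWI-1 group for many rows.

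SMED30000902, of 333 bases, had the widest gap between the sorts. It had 3.34, 2.50 and 1.70 FPKM in X1 cells, against 806, 519 and 439 FPKM in Xins cells, and 26.9, 29.5 and 27.5 FPKM in X2 cells. In the PIWI-1 table the values were 10.4, 52.4, 4.94 and 10.9 FPKM in high cells, 47.9, 53.2, 12.8 and 15.1 in low cells, and 2.11, 12.8, 0.650 and 2.03 in negative cells. The X1 libraries thus lay far below every Xins library, whereas the PIWI-1 high and negative ranges overlapped because negative replicate 2 exceeded high replicates 1, 3 and 4. L(X1,Xins) was -7.39 and L(PIWI-1 high,negative) 1.94. Irradiated animals had 161, 169 and 176 FPKM, and untreated animals 138, 137 and 137 FPKM, all below every Xins library. In the PIWI-1 table the unc_totalRNA library had 181 FPKM, above every sorted library.

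SMED30020794, of 557 bases, came next. X1 libraries held 1.80, 2.37 and 2.08 FPKM, against 369, 252 and 204 FPKM in Xins libraries. PIWI-1 high cells had 9.99, 39.6, 10.1 and 17.1 FPKM, and PIWI-1 negative cells 0.892, 7.54, 0.555 and 3.53 FPKM. All high values were above all negative values, and the PIWI-1 low libraries, at 52.8, 37.6, 24.2 and 28.6 FPKM, exceeded the high library of their number in replicates 1, 3 and 4. This transcript and SMED30000902 were also the widest-gap cases among the 14 that met all conditions under every scaling tried.

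A second pair was selected for abundance. SMED30005231, of 2255 bases, was the most abundant of the 90 in untreated animals. Its values were 182, 116 and 95.7 FPKM in X1 cells, against 240.5, 248 and 350.1 FPKM in Xins cells. PIWI-1 high cells had 1500.0, 2088, 598 and 715 FPKM, and PIWI-1 negative cells 332, 538, 69.7 and 154 FPKM. Neither pair of groups overlapped. Irradiated animals (1209 ± 81.2 FPKM, SD, n = 3) and untreated animals (1317 ± 56.8 FPKM, SD, n = 3) had more of it than any X1, X2 or Xins library. In the PIWI-1 table, unc_totalRNA had 1236 FPKM, below PIWI-1 high replicates 1 and 2 and above replicates 3 and 4. SMED30012869, next in abundance, had 80.5 ± 9.21 FPKM in X1, 169 ± 54.8 in Xins and 831 ± 15.6 in untreated animals (SD, n = 3 each), with 496 ± 190 FPKM in PIWI-1 high and 263 ± 144 in PIWI-1 negative cells (SD, n = 4 each). Its high and negative ranges overlapped.

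That whole animals exceeded the sorted cells was not general among the discordant transcripts. The untreated mean was above all of X1, X2 and Xins for 39 of 90, beside 65.7% of the 19619 transcripts at 1 FPKM or more in untreated animals. The unc_totalRNA library was above all 3 PIWI-1 populations for 61 of 90, beside 61.9%. Both held for 36 of 90, beside 52.0%. Conversely, untreated animals lay below both X2 and Xins for 32 of 90, beside 22.4%. The rule used Xins and the PIWI-1 populations, and the 19619 were filtered on untreated animals alone. Nothing is therefore read from these shares.

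**Figure D3:**
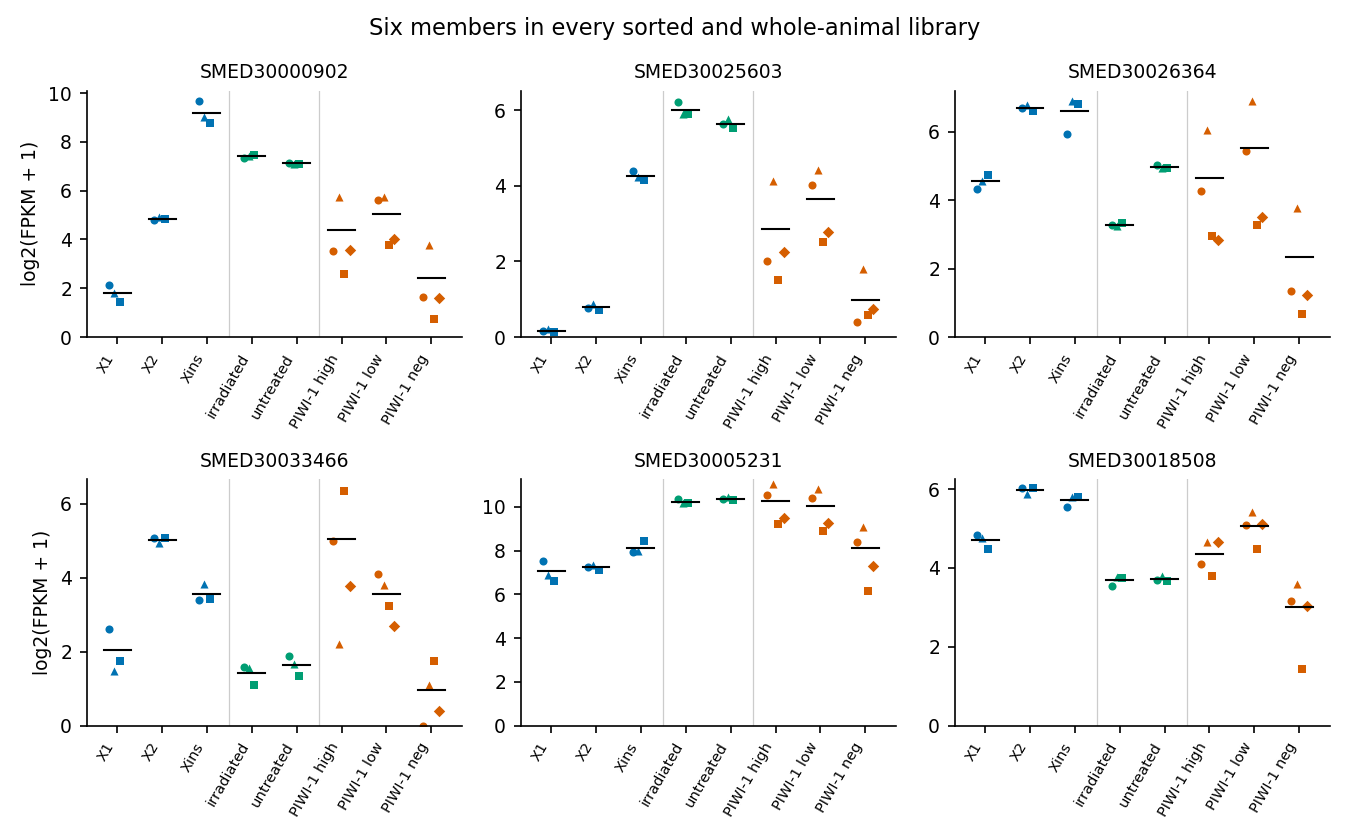
Log2(FPKM + 1) in every sorted library and every irradiated and untreated library for 6 of the named transcripts. Circles, triangles, squares and diamonds are replicates 1 to 4, the bar is log2(mean FPKM + 1), blue marks X cells, green whole animals and orange the PIWI-1 sorts, and for SMED30000902 X1 is the lowest of the X cells while PIWI-1 negative is the lowest PIWI-1 mean.

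The rule set no condition on X2 cells and only an upper limit on PIWI-1 low cells. X2 exceeded X1 in mean for 89 of 90 discordant transcripts, beside 68.5% of the 19619, and exceeded Xins for 17 of 90, beside 26.0%. Most of the 90 therefore stood between X1 and Xins in X2 cells. Since X1 was low and Xins high by choice, both counts draw on values that the rule used. PIWI-1 low exceeded PIWI-1 high for 77 of 90, beside 57.5%, although the rule kept out any with an L(low,high) of 1 or more, which bounds this count. PIWI-1 low exceeded PIWI-1 negative for 90 of 90, beside 39.0%, where negative was low by choice. These orders describe the libraries that chose the transcripts, and nothing is read from the shares.

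At the ends of the PIWI-1 low to high range stood transcripts of different kinds. SMED30023536 averaged 22.2 ± 9.63 FPKM in PIWI-1 high, 45.1 ± 18.0 in PIWI-1 low and 9.61 ± 5.11 in PIWI-1 negative cells (SD, n = 4 each), and low exceeded high in each number. SMED30022665 was close to it, with an L(low,high) of 0.99 for both. SMED30033466, of 421 bases, had the lowest L(low,high), -1.49, and the highest L(high,negative), 4.09. Its PIWI-1 high libraries held 31.0, 3.59, 80.9 and 12.7 FPKM, its low libraries 16.3, 12.9, 8.34 and 5.53, and its negative libraries 0, 1.13, 2.35 and 0.306 FPKM. High replicates 1 and 3 were the highest and replicate 2 lay below its own low library, so the mean of the high group rests on replicates 1 and 3. In the Hoechst sort the same transcript was an X2 transcript, with 32.5, 29.7 and 32.8 FPKM in X2 cells, against 5.16, 1.77 and 2.35 in X1 and 9.57, 13.3 and 9.67 in Xins cells. SMED30000141, of only 153 bases, was the other low extreme. Its PIWI-1 high values were 0.914, 18.5, 0.977 and 0.191 FPKM, and its negative values 0.811, 4.16, 0 and 0, so its place among the 90 depends on replicate 2.

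Irradiation removes neoblasts within a day, and those libraries took no part in the choice. Lethally irradiated and untreated animals differed little in the discordant transcripts that could be tested. Of the 90, 85 could be tested and 5 were too low (under 1 FPKM in all but 2 or fewer of the 6 libraries). All 5 had a lower mean in irradiated animals, from 0.0365 to 0.535 FPKM, against 0.320 to 1.29 FPKM in untreated animals. With no filter on low values, 34 of the 90 had a difference above 0 and 56 below, with 0 called higher and 1 lower. Of the 85, 0 were called higher and 1 was called lower in irradiated animals (limma, Benjamini-Hochberg adjustment, adjusted p under 0.05, with a change of at least 1 log2 unit). Over all 19651 transcripts tested, 0.168% were called higher and 1.74% lower, so the count among the 85 is near the background. At an unadjusted p under 0.05, 21 of the 85 were higher and 28 lower, beside 18.4% and 24.5% of all tested. With the adjusted p alone and no limit on size, 17 were higher and 22 lower, beside 12.8% and 19.6% of all tested. That count of 39 was 24 without irradiated replicate 2, 25 without untreated replicate 1 and 21 without untreated replicate 3. On the recovered reads, a limma voom fit called 0 higher and 2 lower. Over the 85 the median log2 difference was -0.03, beside -0.02 over all tested. For the 86 chosen without PIWI-1 replicate 2, of which 82 were tested, the calls were again 0 higher and 1 lower, with a median of -0.05. The transcripts on which the sorts pointed the same way stood on either side: of 675 tested that were higher in both sorts, 0 were called higher and 119 lower (median -0.57), and of 2876 tested that were lower in both, 3 were called higher and 0 lower (median 0.09).

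SMED30026364, of 2047 bases, was the transcript called lower at the limit of 1 log2 unit. Irradiated animals had 8.58, 8.52 and 9.02 FPKM, against 31.9, 29.7 and 29.6 FPKM in untreated animals. The groups were far apart, and the log2 difference was -1.69 ± 0.05 (SE, n = 3 each, limma adjusted p = 2.26e-06). It was also higher in X2 cells, at 103, 109 and 95.8 FPKM, than in untreated animals, by 1.72 ± 0.06 (SE, limma adjusted p = 5.71e-08). X1 cells had 19.2, 22.7 and 25.5 FPKM, against 60.4, 117 and 111 FPKM in Xins cells, and PIWI-1 high cells 18.3, 64.8, 6.79 and 6.19 FPKM, against 1.54, 12.6, 0.589 and 1.34 in negative cells. This transcript, lower 24 hours after irradiation, was thus present in every Xins library at more than the untreated whole-animal level.

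SMED30028488 was the most extreme on the other side, without reaching the size limit. Irradiated animals had 19.0, 19.1 and 21.2 FPKM, against 10.9, 11.2 and 11.9 FPKM in untreated animals. The ranges were separate, with a log2 difference of 0.75 ± 0.06 (SE, n = 3 each, limma adjusted p = 0.000136).

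**Figure D4:**
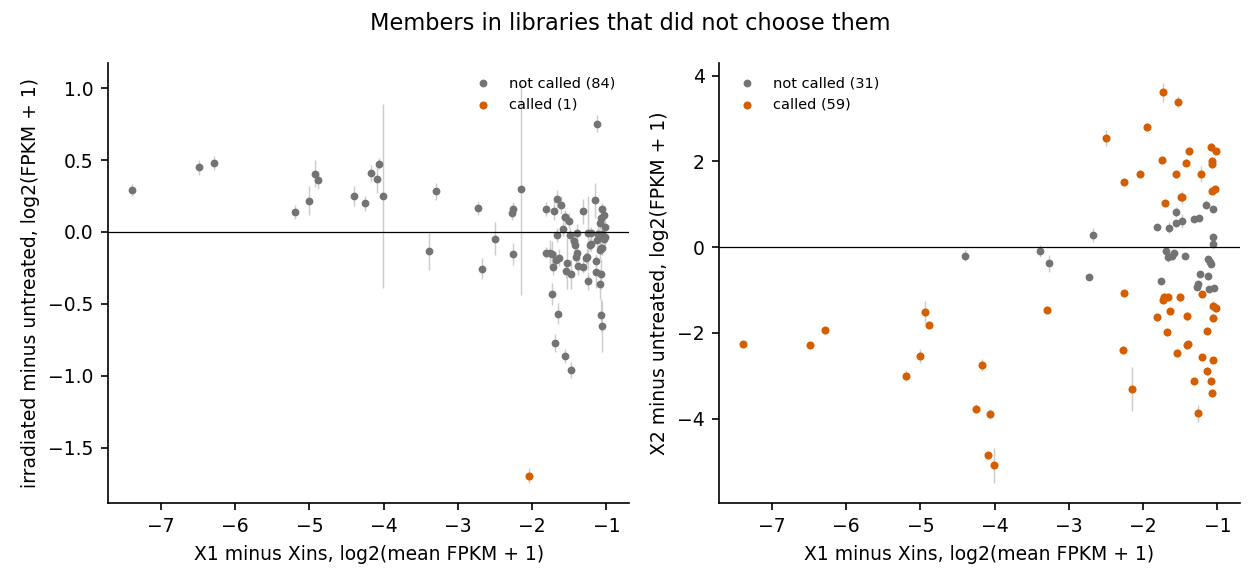
Log2 difference of irradiated minus untreated animals (left, 85 transcripts) and of X2 cells minus untreated animals (right, 90 transcripts) against X1 minus Xins, on the log2(FPKM + 1) scale, with standard errors from limma as grey lines. On the left the most negative X1 minus Xins values mostly lie above 0 and 1 transcript is called, and on the right calls lie on both sides of 0.

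As deposited, the sign of the irradiation difference was counted in bands of L(X1,Xins). Of 16 transcripts with L(X1,Xins) of at most -3, 15 were tested, and 14 had a higher mean log2 level in irradiated than in untreated animals, with a median difference of 0.29. Of the 66 with L(X1,Xins) above -2, 62 were tested, with 16 above 0, 46 below 0 and a median of -0.09. The 8 between had 4 on each side. No share over all transcripts in the same bands was taken, so these counts have no background to be set against. The signs also moved with scaling. Of the 85 tested as deposited, 34 were above 0 and 51 below. Under median-ratio scaling 50 were above and 32 below of 82 tested, and the median over all transcripts moved from -0.02 to 0.07. The bands were not counted again under that scaling. Across the 85 tested, Pearson's r between L(X1,Xins) and the irradiation difference was -0.44 and Spearman's rho -0.37, a description across transcripts, which share libraries and are not independent. The 16 had X1 means between 0.0807 and 4.67 FPKM, with medians of 0.355 FPKM in X1, 2.22 in X2 and 32.5 in Xins cells, and they had 3.17 FPKM in PIWI-1 high, 6.05 in PIWI-1 low and 0.859 in PIWI-1 negative cells. PIWI-1 low exceeded PIWI-1 high in 16 of these 16. Their median recovered length was 587.5 bases, against 1466 bases for the 66. A second division was by X2: 17 transcripts had an X2 mean at or above Xins, and of their 14 tested, 6 had an adjusted p under 0.05 on the lower side and 0 on the higher side in irradiated animals. Of the 71 tested with X2 below Xins, 16 were lower and 17 higher by the same measure. Over all transcripts tested, 19.6% were lower and 12.8% higher by that measure. No share was taken over all transcripts divided in the same way, and the division used Xins, which the rule also used. The difference between those classes was not tested, and nothing is read from these counts.

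X2 cells against untreated animals was the second comparison that the choice had not used. Both comparisons share the 3 untreated libraries, and this one sets sorted cells against whole animals, so that sorting and cell makeup cannot be told apart. Of 90 tested discordant transcripts, 20 were called higher and 39 lower in X2 cells, beside 13.5% higher and 56.1% lower of the 19314 tested. With the adjusted p alone, 30 were higher and 51 lower, beside 23.9% and 69.6%. The median difference was -0.69, beside -1.18 over all tested. Of the 86 chosen without PIWI-1 replicate 2, 22 were called higher and 30 lower, with a median of -0.25. Scaling changed the split. After median-ratio scaling 35 were called higher and 21 lower of 89 tested, beside 30.7% and 32.4% of all 17484 tested, so the split of all transcripts moved as well. The median was 0.44, while the median over all tested was -0.26. Relative to all transcripts, the discordant ones were 0.49 log2 units higher as deposited and 0.70 higher after median-ratio scaling. The rule favoured transcripts detected in sorted cells, while the others tested could pass the filter through untreated animals alone. Nothing is therefore read from this gap or from the shares beside the calls. For comparison, of 2869 tested that were lower in both sorts, 28 were called higher and 2244 lower in X2 cells, and of 777 tested that were higher in both, 493 were called higher and 44 lower. These differences between lists were not tested.

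Among those with at least 5 FPKM in untreated animals, SMED30018508, of 1074 bases, and SMED30032499, of 2380 bases, were raised the most in X2. SMED30018508 had 64.1, 57.6 and 64.3 FPKM in X2 cells, against 11.9, 12.9 and 11.8 FPKM in untreated animals, a log2 difference of 2.25 ± 0.07 (SE, limma adjusted p = 2.41e-08). SMED30032499 had 60.5, 69.4 and 78.6 FPKM in X2 cells, against 14.3, 13.0 and 14.3 FPKM in untreated animals, a difference of 2.24 ± 0.10 (SE, limma adjusted p = 1.23e-07). Every X2 value of both lay above every X1, Xins and untreated value. With no limit on the untreated level, SMED30011775 (3.61 ± 0.22), SMED30033466 (3.39 ± 0.13), SMED30011413 (2.81 ± 0.10), SMED30032692 (2.55 ± 0.18) and SMED30035742 (2.33 ± 0.10) differed more (SE), all from untreated means of at most 2.14 FPKM. These were picked out after their values were seen.

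SMED30028287, of 424 bases, and SMED30025603, of 1841 bases, were lowered the most in X2. For SMED30028287 X2 cells had 0.695, 1.39 and 0.527 FPKM, against 52.7, 123 and 35.7 FPKM in untreated animals, a log2 difference of -5.09 ± 0.41 (SE, limma adjusted p = 4.47e-06). It varied widely between whole-animal libraries, with 190.4, 42.5 and 48.5 FPKM in irradiated animals. SMED30025603 was steadier, with 0.688, 0.823 and 0.652 FPKM in X2 cells, against 48.2, 53.0 and 45.6 FPKM in untreated animals, a difference of -4.86 ± 0.08 (SE, limma adjusted p = 8.67e-09). Its X1 libraries had 0.121, 0.156 and 0.0921 FPKM, against 19.8, 17.8 and 16.9 FPKM in Xins. PIWI-1 high cells had 3.04, 16.5, 1.83 and 3.79 FPKM, against 0.315, 2.45, 0.487 and 0.683 FPKM in negative cells. Every X library was thus below the whole animals, and PIWI-1 high replicate 3 was below negative replicate 2.

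Membership depended on how libraries were scaled, which bears on every count above. Median-ratio scaling moved the median L(X1,Xins) of all transcripts to 0.08, against -0.70 as deposited. The discordant transcripts then had a median of -0.62, against -1.54 as deposited, so 26 of 90 still met the X1 to Xins limit. Rescaling without the most abundant transcript of each library acted on the other sort: the median L(PIWI-1 high,negative) of all transcripts became -0.62, against -0.21 as deposited, and 48 of 90 still met that limit. Relative to all transcripts the medians moved less. In X1 minus Xins the discordant transcripts stood at -0.84 as deposited, -0.70 under median-ratio scaling and -0.83 without the top transcript. In PIWI-1 high minus negative they stood at 1.30 as deposited, 1.30 under median-ratio scaling and 1.35 without the top transcript. The direction in each sort was kept by 90 of 90 under both scalings. All conditions were met by 22 of 90 under median-ratio scaling, by 36 without the top transcript and by 14 under both.

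Among 28 alternatives (pseudocounts, scalings, medians, a level minimum and libraries left out), 2 transcripts met the rule under every one. They were named after their values were seen. SMED30004081, of 1858 bases, had 15.8, 15.2 and 17.1 FPKM in X1 cells, against 62.9, 92.9 and 87.1 FPKM in Xins cells. Its PIWI-1 high libraries held 34.1, 64.2, 14.9 and 19.2 FPKM, against 6.13, 14.6, 1.71 and 3.69 FPKM in negative libraries. SMED30003274, of 494 bases, had 9.91, 13.1 and 11.9 FPKM in X1 cells, against 75.9, 55.7 and 46.7 FPKM in Xins cells. Its PIWI-1 high libraries held 16.2, 14.1, 11.0 and 19.8 FPKM, against 5.78, 5.92, 2.44 and 8.94 FPKM in negative libraries. Both kept their groups apart in both sorts, and neither was called in irradiated against untreated animals. The log2 difference was 0.13 ± 0.05 for SMED30004081 (SE, limma adjusted p = 0.0824) and 0.16 ± 0.05 for SMED30003274 (SE, limma adjusted p = 0.0458).

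In length the discordant transcripts were unremarkable, with a median of 1268 bases (153 to 7230), beside 1189 bases for the 19618 transcripts at 1 FPKM or more in untreated animals that have a recovered length.

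**Figure D5:**
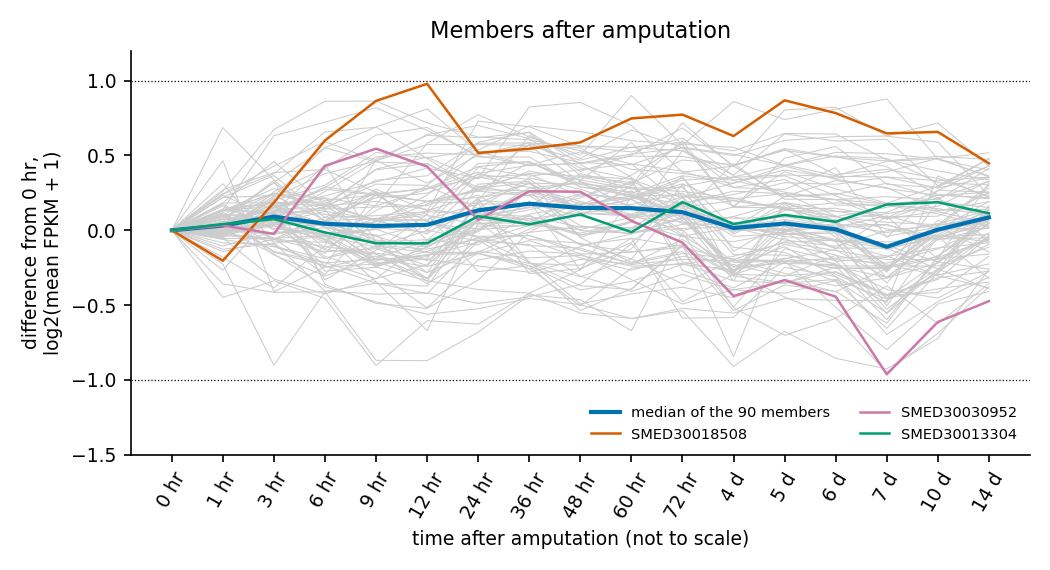
Difference of log2(mean FPKM + 1) from 0 hr at each time after amputation for the 90 discordant transcripts (grey), their median (blue) and 3 named transcripts. The dotted lines are the limits of 1 and -1 that the choice imposed, and the median stays between -0.11 and 0.18.

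Through regeneration the discordant transcripts stayed within the limits by choice. Their median difference from 0 hr was 0.18 at 36 hr, the highest, and -0.11 at 7 days, the lowest, while the median over all transcripts with at least 1 FPKM at 0 hr was 0.05 at 36 hr and 0.21 at 7 days. The largest change of a transcript fell most often at 7 days (14 of 90) and 36 hr (10 of 90). No share over all transcripts was taken for these times, and the rule bounded the changes, so nothing is read from these counts. SMED30018508 came closest to the upper limit. It had 11.9, 12.1, 14.4 and 8.84 FPKM at 0 hr and 22.2, 25.7, 27.7 and 21.4 FPKM at 12 hr, a difference of 0.98, and the times did not overlap. SMED30030952, nearly undetected in X1 (0.242, 0 and 0 FPKM in X1, against 40.9, 28.7 and 23.1 FPKM in Xins), came closest to the lower limit. It had 7.95, 8.37, 8.28 and 6.80 FPKM at 0 hr and 3.85, 3.58, 3.68 and 3.05 FPKM at 7 days, a difference of -0.96, again without overlap. SMED30013304 and SMED30027691 were the flattest, with no time further than 0.19 and 0.20 from 0 hr.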

How the data were processed

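The authors deposited 3 tables of FPKM for 36035 transcripts in 96 libraries of polyA RNA, per the file headers. Per the submitters' processing notes, the tools included Bowtie2 2.2.9 and edgeR; their roles are not stated there. The reference build and counting method are not given in the sources used here. Members and lists were chosen with earlier results of these data known.

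Contrasts were taken within a table, since each may have been normalized separately. Irradiated animals, and separately X2 cells, were compared with untreated animals in limma 3.58.1 (linear fit, eBayes with trend, two-sided, Benjamini-Hochberg over all transcripts tested) in R 4.3.3 on log2(FPKM + 1), for transcripts with at least 1 FPKM in 3 libraries. A pseudocount of 1 understates the change of low transcripts. The fit was first tested on simulated data.

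Whole reads, library totals and lengths were recovered from the steps of the FPKM values, with 34765 transcripts given a length and 100%, to rounding, of their values whole within 0.05 of a read. One read on 1 kb is 0.0226 to 0.0414 FPKM in the sorted libraries. Reads shared by near-identical transcripts could not be assessed.

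Transcripts were named by a rule, at most 2 per direction: the widest gap between the sorts, the highest level in untreated animals, the most extreme calls in each tested comparison, the ends of PIWI-1 low to high and of the time course, those nearest each limit, and the widest gaps that survived every scaling. Levels, tests and time course were restricted to means of at least 5 FPKM in untreated animals, and PIWI-1 low to high to 5 FPKM in high or low cells. The PIWI-1 libraries of replicate 2 were also left out of the choice, and the whole-read fit was added, after seeing the data. Other alternatives were pseudocounts, scalings, filters, a replicate block and libraries left out.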

Additional observations from a re-analysis of the deposited data

Results flagged for a closer look

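Among the 19 named transcripts, 57 groups of 4 PIWI-1 libraries were checked for a library far from the other 3 (Dixon's criterion at the 95% level). In 8 groups the library of replicate 2 stood apart. Chance would flag about 1 in 20 independent groups. These groups share libraries, and the rule used those libraries, so that rate cannot be set against the 8. No rate over all transcripts was taken. Over the 19619 transcripts at 1 FPKM or more in untreated animals, the median in PIWI-1 high cells was also highest in replicate 2, at 3.34 FPKM, against 1.09 to 1.59 in the others. SMED30000902 had 52.4 FPKM in PIWI-1 high replicate 2, where the others had 4.94 to 10.9, and 12.8 FPKM in PIWI-1 negative replicate 2, where the others had 0.650 to 2.11. SMED30026364 had 12.6 FPKM in PIWI-1 negative replicate 2 (others 0.589 to 1.54). SMED30028287 had 44.5 FPKM in PIWI-1 high replicate 2 (others 2.73 to 4.27) and 7.72 FPKM in PIWI-1 negative replicate 2 (others 0.948 to 1.76). SMED30025603 had 16.5 FPKM in PIWI-1 high replicate 2 (others 1.83 to 3.79). SMED30000141 had 18.5 FPKM in PIWI-1 high replicate 2 (others 0.191 to 0.977) and 9.41 FPKM in PIWI-1 low replicate 2 (others 0 to 0.923). The same libraries had the most transcripts at 1 FPKM or more in their populations, and the part of this in each value was not tested.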

How the results depend on the processing

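The number of transcripts that met the rule, 90 as deposited, was the least stable result. It was 172 with a pseudocount of 0.1 FPKM (76 shared with the 90) and 42 with 5 FPKM (32 shared), 37 under median-ratio scaling (22 shared), 38 without the most abundant transcript (36 shared), and 59 with at least 5 FPKM in Xins and PIWI-1 high. Leaving out single libraries or a PIWI-1 number gave 37 to 253. It was 37 without PIWI-1 high replicate 2, 150 without PIWI-1 high replicate 3 and 253 without PIWI-1 negative replicate 2. In irradiated against untreated animals, 374 transcripts were called, with 581 at a pseudocount of 0.1 FPKM and 620 with limma voom on recovered reads, an alternative chosen after seeing the data. The discordant transcripts called were 1, and 2 under both of those. The second in each was SMED30025750 (-0.96, limma adjusted p = 3.33e-05, as deposited). By adjusted p alone, 28 of 82 tested were higher and 10 lower under median-ratio scaling (all tested: 27.8% and 15.4%), against 17 and 22 of 85 as deposited (12.8% and 19.6%). With replicate number as a block the calls were unchanged in number, at 374 and 1 for irradiation and 13441 and 59 for X2. By adjusted p alone, the block left 11 higher and 12 lower of the 85 (all tested: 8.90% and 16.0%). Same-number deviations correlated at -0.29, -0.55 and 0.41 for irradiated and untreated animals, and different-number deviations at -0.61 to 0.67. For X2 and untreated animals the same-number values were -0.04, -0.11 and -0.06, and the different-number values -0.03 to 0.09. Deviations within 3 libraries constrain each other, so whether the numbers pair the libraries of these comparisons cannot be told from these values. No result changed sign for the named calls in either comparison under the alternatives run. The cause of these movements was not tested.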
